A study of Mus musculus with 6 samples.

Results

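COPI and COPII coats build the vesicles that carry proteins between the endoplasmic reticulum (ER) and the Golgi apparatus, and 40 mouse genes of these coats and their partners are described here in the anterior prostate (AP). Genes were taken by symbol from a list of coat subunits, coat GTPases, cargo receptors, tethers and SNAREs, and each of the 40 had a row among the 55076 rows of every deposited table. RNA libraries of the whole AP were sequenced for 3 OEx and 3 Ctrl replicates from males aged 20 weeks, with no drug treatment named in the labels. OEx mice carried Pbsn-Cre and Rosa26 N1ICD/+, so that the probasin promoter drove Cre in prostate epithelium and Cre switched on the intracellular domain of Notch1. Ctrl mice, which the labels call wild type, are described in the study as Rosa26 N1ICD/+ without Cre, so that both groups would share the N1ICD allele and only Cre would differ. The AP was taken whole after its secretions were cleaned off, so that stroma, in which the promoter does not act, was sequenced together with the epithelium.

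COPII vesicles bud from the ER, where the GTPase Sar1 recruits the inner coat of Sec23 and Sec24 and then the outer cage of Sec13 and Sec31. COPI vesicles bud from the Golgi apparatus and the compartment between both organelles, where Arf GTPases recruit a preassembled coatomer, and they return receptors and escaped ER residents. Luminal cells of the prostate are secretory, and their fluid passes through this route.

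The library labels were checked on Notch1, which read 41.9, 47.6 and 78.9 FPKM in OEx mice and 5.18, 5.55 and 3.34 FPKM in Ctrl mice (log2 fold change 3.30), with reads of the transgene included. FPKM is the number of fragments per kilobase of exon, scaled to library size. Recovered reads on annotated genes ran from 14762182 to 18650962 per mouse. Replicates 1 and 2 of each group lay close together, with a chi-square per degree of freedom of 2.93 in Ctrl and 3.67 in OEx, whereas pairs with a replicate 3 gave 50.4 to 86.7, and Ctrl replicate 3 alone held 1.31% of its reads on 8 seminal vesicle genes. The labels do not say whether replicates 1 and 2 came from different animals, and if they did not, n is 2 per group and the p-values are too small. Each library is called a mouse here, as the tables are. Luminal markers were present in every mouse, with Krt8 at 291 to 336 FPKM in OEx and 405 to 430 FPKM in Ctrl mice. The top gene of each Ctrl library held 14.3% to 22.02% of its reads, and that of each OEx library held at most 1.12%. Library size as it enters the FPKM values exceeded the recovered reads by a factor of 1.22 to 1.35 in OEx and was 0.726 to 0.815 of them in Ctrl libraries, so the choice of scaling moves all genes of a group together.

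Trafficking genes were lower in OEx AP. Of 39 tested genes, 17 were called lower at an FDR under 0.05 and beyond 2-fold (limma, Benjamini-Hochberg) and 0 were called higher, against 15.7% called lower and 12.9% called higher of the 12833 genes tested. The largest differences were in Tmed3, Copz2, Mcfd2 and Kdelr1, which were 7.23-fold, 5.20-fold, 5.11-fold and 3.62-fold lower by group means. Without the fold criterion, 26 genes were lower and 0 higher, against 36.5% lower and 30.7% higher of all genes tested, and 13 did not pass. At an unadjusted p under 0.05, 0 were higher, and limma-voom on recovered reads also called 0 higher. The values of OEx mice lay below those of all Ctrl mice for 27 genes (38.9% of all tested genes), above them for Sec24b and Golgb1 (33.4% of all tested genes), and overlapped for 10. The median log2 fold change was -0.85 over the 39 genes and -0.08 over all tested genes, a gap of -0.77. These genes are abundant, and among tested genes within their range of mean FPKM, 19.3% were called lower and 10.7% higher, with a median of -0.25. That range runs from 3.65 to 326 FPKM and so is not matched for level. Most of the 39 genes averaged 10 FPKM or more. Of all tested genes that did, 28.3% were called lower and 7.38% higher, with a median of -0.55. The median of the 39 genes thus lay nearer to that of abundant genes than to that of all tested genes. The 40th gene, Sec16b, had 11 to 54 reads per mouse and was under the filter of a mean of at least 1 FPKM. In bulk tissue, fewer cells of a type and less RNA per cell cannot be told apart. Nothing in the labels says how the mice were related, and the p-values measure only the spread between these 6 libraries.

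Markers of several cell types moved with the groups. The summed level of 4 basal markers was 6.79 to 15.9 FPKM in OEx and 212 to 249 FPKM in Ctrl mice, with 4 of 4 called lower, and that of 5 smooth muscle markers was 351 to 418 against 1043 to 2245 FPKM, with 5 of 5 called lower. Of 5 luminal markers, 3 were called lower (Krt18, Hoxb13 and Pbsn), and the sum was 2815 to 5712 against 16520 to 20400 FPKM, most of it Pbsn. No fibroblast, endothelial or immune marker was called (6, 4 and 3 tested), with sums of 25.1 to 252, 5.83 to 7.02 and 8.09 to 32.4 FPKM in OEx against 53.1 to 94.7, 11.4 to 16.6 and 8.19 to 15.8 FPKM in Ctrl mice. Within 2-fold, the endothelial markers Pecam1 and Cdh5 passed the FDR as lower, at -0.97 and -0.87 (limma FDRs of 0.0020 and 5.28e-04). By the FDR 36.5% of all tested genes were lower. Ptprc, an immune marker under the filter, was at 0.43 to 1.85 FPKM in OEx and 0.074 to 0.20 FPKM in Ctrl mice. None of the defining markers of these lists was at 0 in all mice. The part of these markers in the trafficking gene values was not tested.

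The call depends on the scaling between mice. When recovered reads were scaled to library totals, the median of all tested genes moved to 0.56 and that of the 39 genes to -0.088, a gap of -0.65. On that scale 4 of the 39 were called lower (Tmed3, Copz2, Mcfd2 and Kdelr1) against 4.59% of all tested genes, and Sec24b and Golgb1 were called higher against 30.6%. By the FDR alone 15 were then lower and 11 higher, against 14.0% and 56.9%. The abundant secretion genes of Ctrl mice are part of those totals, and without the 20 most abundant genes 9 of the 39 were called lower, against 9.38%. Upper-quartile scaling called 20 lower against 19.4%, or 9 against 10.3% when the quartile was taken over tested genes. Without both replicates 3, 19 were called lower against 16.5%, and with replicates 1 and 2 of each group averaged and counted as 1 sample, 14 were called lower against 15.5%, without Arf4, Gbf1 and Sec23b. Directions are given on the deposited scale, and levels that turn with library totals are named where they occur.

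**Figure D1:**
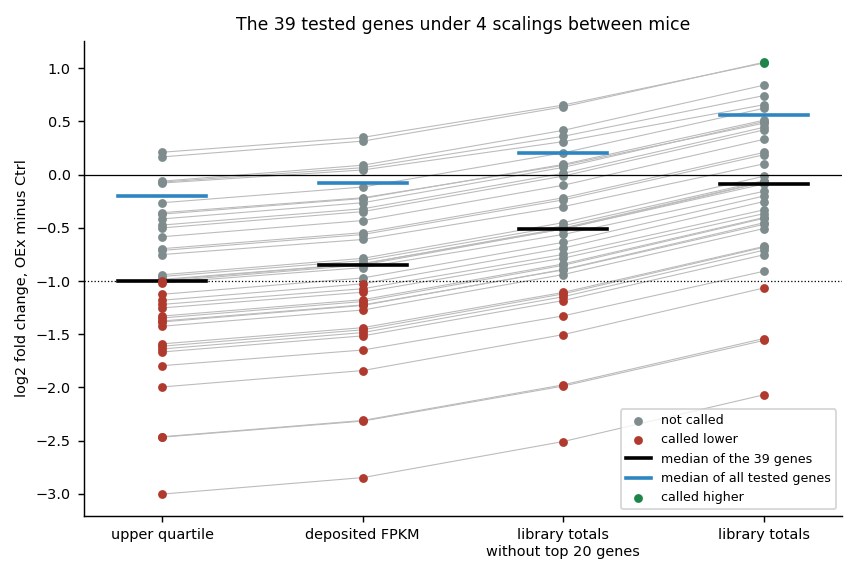
Log2 fold changes (OEx minus Ctrl) of the 39 tested genes under 4 scalings, 1 point and line per gene, with black bars for their median and blue bars for the median of all tested genes. The median of the 39 genes lies below that of all tested genes under each scaling, by 0.65 with library totals and by 0.77 on the deposited scale, where it is -0.85.

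**Figure D2:**
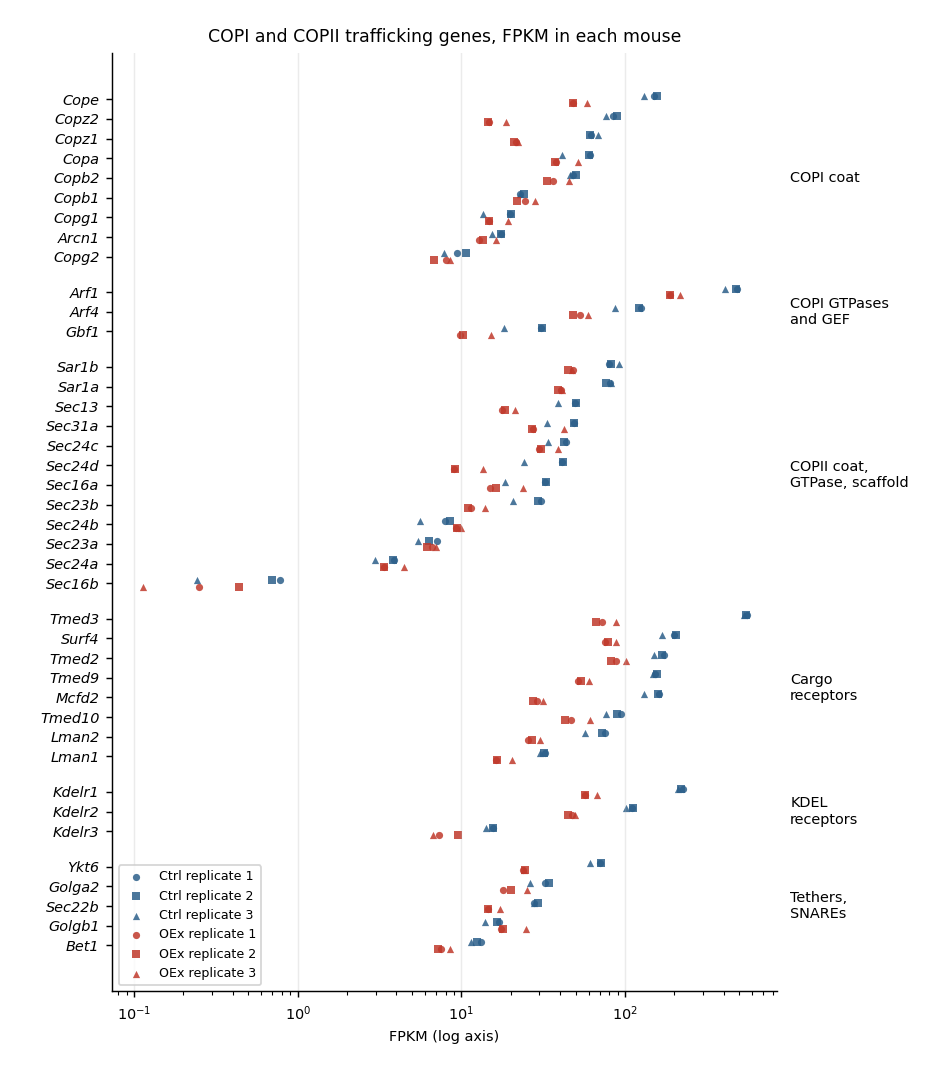
FPKM of the 40 genes in each mouse on a log axis, grouped by role, with blue symbols for Ctrl, red symbols for OEx and 1 shape per replicate number. Tmed3, Copz2, Mcfd2 and Kdelr1 show the widest gaps between the groups, while the values of 10 tested genes overlap.

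A short motif recurred in the promoters of these genes. The sequence TGACGTGG is the core of the unfolded protein response element (UPRE), which ATF6 and XBP1 are known to bind. It was searched on both strands of 300 bases of RefSeq promoter (250 before and 50 after the start, GRCm38.p6). It was found in 8 of the 35 genes with a promoter entry (22.9%), against 193 of 27025 genes overall (0.714%) and 1.07% of the tested genes. The 8 genes were Sec24d, Arf1, Gbf1, Kdelr3, Copb1, Copb2, Sec23a and Sec16b. Kdelr2, Tmed2, Arcn1, Lman1 and Golgb1 had no entry. Windows of 30 bases around the motif are shown 5′ to 3′ on the strand of the gene, since this is the feature that the 8 genes share, with the motif in capitals. CCACGTCA is the same motif read from the other strand.
Sec24d: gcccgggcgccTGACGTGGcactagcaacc
Arf1: gcggcaggcgcTGACGTGGctgccgtcagc
Gbf1: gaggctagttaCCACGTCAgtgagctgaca
Kdelr3: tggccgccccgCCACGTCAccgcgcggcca
Copb2: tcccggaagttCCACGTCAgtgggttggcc
Sec23a: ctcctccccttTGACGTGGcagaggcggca
Copb1: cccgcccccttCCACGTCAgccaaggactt
Sec16b: ttctgtgtggcTGACGTGGcacggcagttt
The windows lie at chr3:123267459-123267488 for Sec24d (plus strand), chr11:59228228-59228257 for Arf1 (minus), chr19:46152535-46152564 for Gbf1 (plus) and chr15:79516367-79516396 for Kdelr3 (plus). Those of the other genes are at chr9:98563713-98563742 for Copb2 (plus), chr12:59011993-59012022 for Sec23a (minus), chr7:114254690-114254719 for Copb1 (minus) and chr1:157506741-157506770 for Sec16b (plus). The windows of Sec24d, Arf1, Gbf1 and Sec16b lie within annotated exons, that of Kdelr3 lies outside them, and those of Copb1, Copb2 and Sec23a overlap an exon in part. The 7 tested genes with the motif ran from a log2 fold change of -1.65 for Sec24d, -1.19 for Arf1 and -1.11 for Gbf1, all called lower, through -0.87 for Kdelr3 and -0.32 for Copb2 to 0.07 for Sec23a and 0.09 for Copb1. The full ER stress response element (CCAAT and CCACG with 9 bases between) and its second form (ATTGG and CCACG with 1 base between) were in 0 of the 35 genes and in 0.137% and 0.0444% of all genes. The CRE TGACGTCA was in 1 gene (Cope, against 2.03%), CAGCTG in 4 (11.4% against 18.3%) and CCAAT, which is also part of the first element, in 13 (37.1% against 41.1%). A match is a description of letters and says nothing of binding.

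The core of the RBPJ site, GTGGGAA, which the DNA-binding partner of N1ICD is known to bind, was in 3 of the 35 genes (8.57%), against 7.25% of all genes. Of these, Copz2 and Kdelr1 were called lower and Sec22b was lower within 2-fold. The windows of the former are shown with the motif in capitals, which in Kdelr1 is on the other strand, at chr11:96849644-96849672 for Copz2 (plus strand) and chr7:45872794-45872822 for Kdelr1 (plus strand). The share in these genes is near that of all genes.
Copz2: agaggcagtaaGTGGGAAgaaaagagtag
Kdelr1: agactcctcccTTCCCACctcggccctcc

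**Figure D3:**
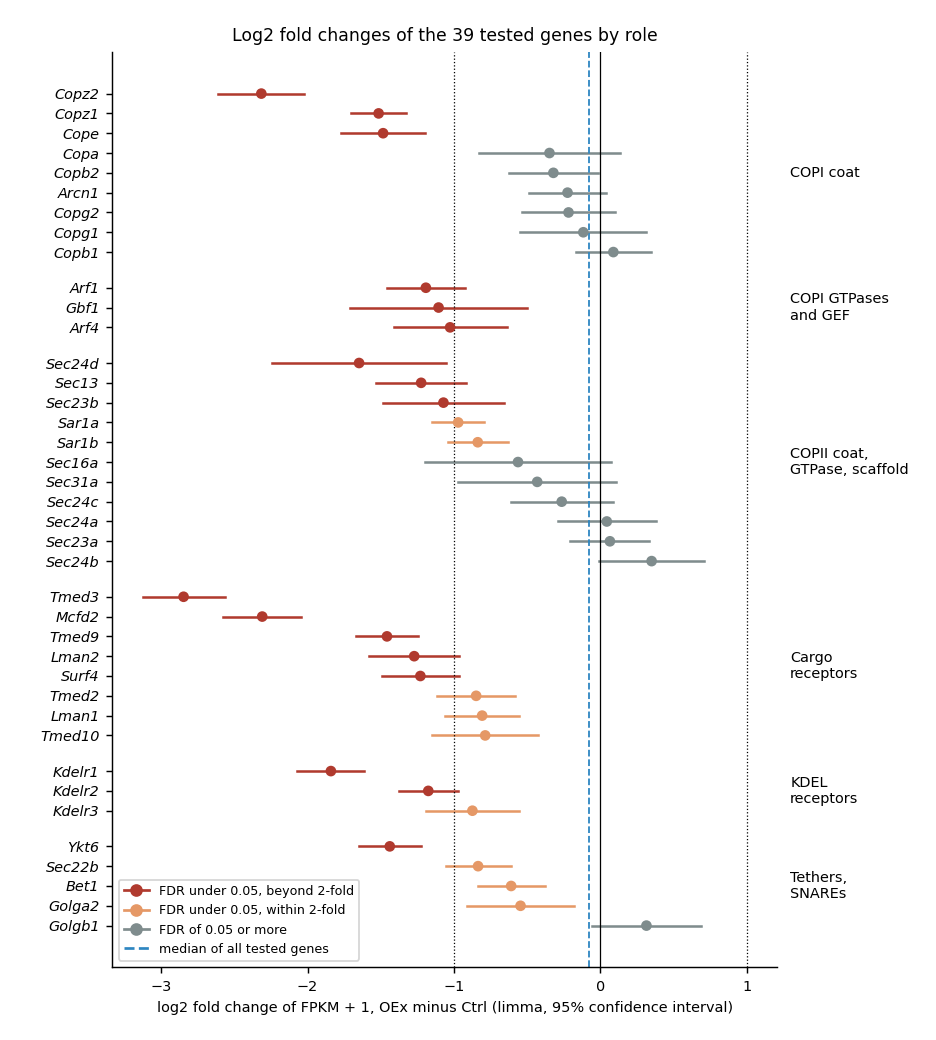
Log2 fold changes of FPKM + 1 (OEx minus Ctrl) of the 39 tested genes by role, with 95% confidence intervals from limma, dotted lines at 2-fold and a dashed line at the median of all tested genes. Red marks the 17 genes called lower, orange the 9 that passed the FDR within 2-fold and grey the 13 that did not pass.

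Within the COPI coat the small subunits were lower on the deposited scale and the large subunits did not pass the test. After the correction for exon length and GC content described below, the large subunits other than Copg1 also passed the FDR as lower. Of 9 coat genes, 3 were called lower (33.3%, against 15.7% of all tested genes) and 6 did not pass. The median log2 fold change of the 9 was -0.32, against -0.08 for all tested genes and -0.55 for those with a mean of at least 10 FPKM. Copz2, which encodes the second zeta subunit of coatomer, read 14.7, 14.5 and 18.8 FPKM in OEx mice and 84.5, 89.2 and 76.4 FPKM in Ctrl mice. The log2 fold change was -2.32 ± 0.12 (SE, n = 3 per group; limma FDR 3.16e-05), and the highest OEx value was far below the lowest Ctrl value. Copz1, the other zeta subunit, read 21.6, 21.1 and 22.3 against 62.2, 61.0 and 68.0 FPKM (log2 fold change -1.51, limma FDR 3.00e-05). Cope, the epsilon subunit, read 47.8, 47.9 and 58.6 against 150.6, 156 and 129.7 FPKM (log2 fold change -1.48, limma FDR 9.96e-05). The groups of all 3 genes were apart, and each remained below Ctrl with library totals, at -1.56, -0.75 and -0.71.

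The 6 other coat genes encode the alpha, beta, beta prime, gamma and delta subunits. Copb1, the beta subunit, was the closest to Ctrl, with 24.6, 21.9 and 28.2 FPKM in OEx and 22.7, 24.3 and 22.8 FPKM in Ctrl mice (log2 fold change 0.09, 95% CI -0.17 to 0.35). Copg1 and Copg2, the gamma subunits, read 14.8, 14.7 and 19.4 against 19.8, 20.2 and 13.7 FPKM and 8.03, 6.85 and 8.52 against 9.38, 10.6 and 7.79 FPKM. Their groups overlapped, with log2 fold changes of -0.12 (95% CI -0.55 to 0.32) and -0.22 (95% CI -0.54 to 0.10). Exons of Copg2 overlap those of Mest on the opposite strand over 17.8% of their length, and the counting is not stated to use strand, so that reads of the pair cannot be told apart. Copa (alpha), Copb2 (beta prime) and Arcn1 (delta) gave -0.35, -0.32 and -0.22, with limma FDRs of 0.165, 0.0587 and 0.115, and only Copb2 had groups apart. With library totals Copa, Copb2, Arcn1, Copg1, Copg2 and Copb1 lay above Ctrl at an FDR under 0.05, by 0.42 to 0.84 on the log2 scale.

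Because coatomer joins its subunits in fixed proportion, the spread of their mRNA levels within a mouse was compared. This measure does not move with the scaling. It is not free of exon length and GC content, and it was not computed after the correction for these described below. The SD of log2 FPKM over the 9 coat genes was 1.28, 1.26 and 1.33 in Ctrl mice and 0.85, 0.87 and 0.90 in OEx mice. The difference was -0.42, and the exact two-sided permutation p was 0.1, the smallest that 3 against 3 mice allow. Every OEx mouse had a narrower spread than every Ctrl mouse. Without Copg2 and Copz2 the difference was -0.43. Since Cope and the zeta subunits were among the most abundant coat mRNAs in Ctrl AP (146 ± 13.99 FPKM for Cope, SD, n = 3) and were the ones lower in OEx, this measure and the fold changes rest on the same values.

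Arf1, Arf4 and Gbf1, which recruit COPI to membranes, were all called lower (median log2 fold change -1.11). Of all tested genes 15.7% were called lower, and 28.3% of those with a mean of at least 10 FPKM. Arf1, the small GTPase that anchors coatomer, was the most abundant of the 40 genes in OEx mice, with 187, 189 and 217 FPKM against 481, 473 and 406 FPKM in Ctrl mice (-1.19 on the log2 scale, limma FDR 1.57e-04). Arf4, a related GTPase, read 53.4, 48.1 and 59.5 against 125, 121 and 87.4 FPKM (log2 fold change -1.03). Gbf1, the exchange factor that loads Arf proteins with GTP, gave -1.11 with a wider error (SE 0.251, limma FDR 0.00743). The groups of all 3 did not overlap, with OEx below Ctrl as for 38.9% of all tested genes. With library totals Arf1 was at -0.41 (limma FDR 0.00454), while Arf4 and Gbf1 were at -0.25 and -0.37 and did not pass (limma FDRs of 0.0933 and 0.150). Arf4 and Gbf1 lay near the 2-fold limit: without OEx replicate 1 Gbf1 was at -0.996, without OEx replicate 2 Arf4 was at -0.95, and without Ctrl replicate 1 or 2 Arf4 was at -0.93 and -0.96 and Gbf1 at -0.98, none of which were calls. Exons of Arf4 overlap those of Arf4os and Pde12 on the opposite strand over 14.6% of their length.

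In COPII, 3 of 11 tested genes were called lower (27.3%) and 2 more passed the FDR, and the median log2 fold change was -0.56. Of all tested genes 15.7% were called lower. Of those with a mean of at least 10 FPKM 28.3% were, with a median of -0.55, so the COPII list lay near genes of that level. Sec24d, a cargo-binding subunit of the inner coat whose promoter holds the UPRE core, differed most. It read 9.003, 9.18 and 13.5 FPKM in OEx and 41.4, 41.6 and 24.3 FPKM in Ctrl mice. The log2 fold change was -1.65 ± 0.25 (SE, n = 3 per group; limma FDR 0.0012). Replicates 3 lay toward each other, and without both the log2 fold change was -2.07. Sec13, a subunit of the outer cage, read 17.7, 18.4 and 21.3 against 49.5, 50.3 and 38.9 FPKM (-1.22). Sec23b, an inner coat subunit that activates the Sar1 GTPase, read 11.4, 10.9 and 14.003 against 30.5, 29.4 and 20.6 FPKM (-1.07). The groups of these genes were apart, but Sec23b was at -0.97 without Ctrl replicate 1 and at -0.998 without Ctrl replicate 2, within 2-fold.

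Sar1a and Sar1b, the GTPases that start the COPII coat, were lower within 2-fold. Sar1a read 40.8, 38.97 and 41.1 against 80.4, 77.0 and 82.4 FPKM (log2 fold change -0.97, limma FDR 8.08e-05), and Sar1b read 48.3, 44.9 and 47.2 against 80.3, 81.7 and 91.6 FPKM (-0.84). Both groups were tight and apart in each gene. With library totals Sar1a and Sar1b were at -0.20 and -0.066 and did not pass (limma FDRs of 0.0894 and 0.629). Sar1b and Sec24a lie head to head on chromosome 11 in GRCm38, with annotated 5′ ends 53 bases apart, and Sec24a did not pass the test.

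The 6 other tested COPII genes did not pass. Sec24a and Sec24b, paralogs of Sec24d, read 3.37, 3.34 and 4.44 against 3.90, 3.84 and 2.98 FPKM and 9.28, 9.41 and 9.90 against 7.99, 8.52 and 5.58 FPKM. Sec24b was higher in every OEx mouse than in any Ctrl mouse, with a log2 fold change of 0.35 (95% CI -0.01 to 0.71, limma FDR 0.0764). Sec24c read 29.8, 30.7 and 38.98 against 43.6, 42.4 and 33.9 FPKM (-0.26), and Sec23a read 6.65, 6.13 and 7.005 against 7.09, 6.35 and 5.41 FPKM (0.07, 95% CI -0.20 to 0.34). The groups of Sec24a, Sec24c and Sec23a overlapped. Sec16a, the scaffold of ER exit sites, read 14.96, 16.4 and 23.8 against 32.4, 33.0 and 18.5 FPKM (-0.56, limma FDR 0.102), and Sec31a, the partner of Sec13 in the cage, gave -0.43 (limma FDR 0.132). In both, replicates 3 made the groups overlap, and without replicates 3 Sec16a was called lower at -1.02. Sec16b, its paralog, was listed at 0.25, 0.44 and 0.11 FPKM in OEx and 0.78, 0.70 and 0.24 FPKM in Ctrl mice, from 11 to 54 reads. With library totals the 6 tested genes of this paragraph lay above Ctrl. Sec24b was called higher at 1.05, and Sec23a, Sec24a and Sec24c passed the FDR at 0.74, 0.66 and 0.50. Sec16a and Sec31a did not pass, at 0.19 and 0.33. By the FDR, 56.9% of all tested genes were higher on that scale.

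Cargo receptors were lower on the deposited scale, with 8 of 8 past the FDR, 5 of them beyond 2-fold, and a median log2 fold change of -1.25. Of all tested genes 36.5% were lower by the FDR and 15.7% were called lower. Tmed3, a p24 protein that sorts cargo into vesicles, was the most abundant of the 40 genes in Ctrl AP and the one with the largest difference. It read 554, 549 and 534 FPKM in Ctrl mice and 72.2, 66.6 and 87.5 FPKM in OEx mice, where it was at rank 4. The log2 fold change was -2.85 ± 0.12 (SE, n = 3 per group; limma FDR 2.04e-05), and it was -2.07 with library totals. Tmed3 spans 89699206 to 89705068 of chromosome 9 in GRCm38. The other p24 genes differed less. Tmed9 read 51.4, 53.6 and 59.8 against 153, 156 and 148 FPKM (-1.46), while Tmed10 read 46.5, 43.2 and 60.9 against 94.7, 88.9 and 76.4 FPKM (-0.79) and Tmed2 gave -0.85, both within 2-fold.

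Mcfd2 and Lman1 encode the subunits of a receptor that carries coagulation factors V and VIII out of the ER. Mcfd2 read 29.0, 27.5 and 31.6 FPKM in OEx and 160.2, 159 and 131 FPKM in Ctrl mice (log2 fold change -2.31 ± 0.11, SE, n = 3 per group; limma FDR 2.64e-05), whereas Lman1 gave -0.81 ± 0.11. Their 95% confidence intervals, -2.57 to -2.04 and -1.06 to -0.56, did not overlap. With the exon length and GC correction described below, Mcfd2 and Lman1 lay closer together, at -1.975 and -1.31. Lman2, a lectin that carries glycoproteins, read 25.5, 26.9 and 30.04 against 75.1, 72.2 and 57.0 FPKM (-1.27). Surf4, a receptor for soluble secreted cargo, read 75.8, 78.4 and 87.9 against 199, 204 and 169 FPKM (-1.23). For all 8 cargo receptors the groups were apart, with OEx below Ctrl, as for 38.9% of all tested genes. With library totals Tmed3, Mcfd2, Tmed9, Lman2 and Surf4 were lower at an FDR under 0.05, at -2.07 to -0.45, while Tmed2, Lman1 and Tmed10 were at -0.071, -0.056 and -0.015 (limma FDRs of 0.440, 0.546 and 0.911).

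KDEL receptors return escaped ER residents, and the genes for all 3 were lower on the deposited scale. All 3 passed the FDR and 2 were called lower, against 36.5% and 15.7% of all tested genes. Kdelr1 read 57.1, 57.3 and 67.1 FPKM in OEx and 227, 221 and 209 FPKM in Ctrl mice (log2 fold change -1.84 ± 0.10, SE, n = 3 per group; limma FDR 3.00e-05). Kdelr2 read 47.6, 45.1 and 49.3 against 111, 113 and 101 FPKM (-1.18). Kdelr3, the least abundant, read 7.32, 9.58 and 6.71 against 15.5, 15.6 and 14.2 FPKM (-0.87, limma FDR 0.00123), which is within 2-fold. No group overlapped, with OEx below Ctrl as for 38.9% of all tested genes. Without OEx replicate 2, the highest OEx value, Kdelr3 was called lower at -1.01. With library totals Kdelr1 and Kdelr2 were at -1.065 and -0.40 and passed the FDR, while Kdelr3 was at -0.16 and did not (limma FDR 0.383).

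Of the tethers and SNAREs, Ykt6 was called lower, Sec22b, Bet1 and Golga2 were lower within 2-fold, and Golgb1 did not pass. That is 4 of 5 lower by the FDR and 1 called lower, against 36.5% and 15.7% of all tested genes. Ykt6, a SNARE of ER and Golgi fusion, read 23.8, 24.6 and 24.3 against 70.6, 71.1 and 60.9 FPKM (log2 fold change -1.44, limma FDR 4.44e-05). Sec22b and Bet1, which are SNAREs of the same step, gave -0.84 and -0.61, and Golga2 (GM130), a tether of the cis-Golgi, gave -0.55 (limma FDR 0.0178). Golga2 did not pass without OEx replicate 1 or 2 (limma FDRs of 0.0594 and 0.0572), without Ctrl replicate 1 or 2 (0.0591 and 0.0623) or with a block for the replicate number (0.0645). With library totals Bet1 and Golga2 lay above Ctrl, at 0.10 and 0.21, and Sec22b was at -0.088 and did not pass (limma FDR 0.337). Golgb1 (giantin), a tether for COPI vesicles, read 17.4, 18.02 and 24.9 against 16.99, 16.6 and 13.9 FPKM, higher in every OEx mouse, with a log2 fold change of 0.32 (95% CI -0.06 to 0.69, limma FDR 0.115).

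Ratios between paralogs within a mouse are free of the scaling between mice, apart from the pseudocount of 1, and 11 pairs were compared. They are not free of exon length and GC content, and no ratio was computed after the correction for these described below. Under that correction the log2 fold changes of Copz1 and Copz2 were -1.45 and -1.84, and those of Kdelr1 and Kdelr2 were -1.29 and -0.92. Sec24a and Sec24b were at -0.41 and 0.33, and Sec24c and Sec24d at -0.26 and -1.93. Arf1 and Arf4 were at -0.71 and -1.44, against -1.19 and -1.03 without the correction, so that the order of this pair turned. The largest difference was in Sec24c over Sec24d, where the log2 ratio was 0.07, 0.03 and 0.46 in Ctrl mice and 1.62, 1.64 and 1.46 in OEx mice, a difference of 1.38. Sec24c and Sec24d were thus at nearly even levels in Ctrl AP, and Sec24c was the more abundant in every OEx mouse. The ratio of Sec23a to Sec23b went from a mean of -1.92 ± 0.15 in Ctrl to -0.78 ± 0.11 in OEx (SD, n = 3 per group), a difference of 1.14, with Sec23b the more abundant in both. For Copz1 over Copz2 the log2 ratios were -0.44, -0.54 and -0.16 in Ctrl mice and 0.52, 0.51 and 0.23 in OEx mice, so that Copz2 was the more abundant in all Ctrl mice and Copz1 in all OEx mice (difference 0.80).

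Among the KDEL receptors the ratio of Kdelr1 to Kdelr2 went from a mean of 1.010 to 0.35 (difference -0.67) and that of Kdelr1 to Kdelr3 from 3.77 to 2.80 (difference -0.97). Kdelr2 over Kdelr3, Sec24a over Sec24b and Sar1a over Sar1b differed by -0.30, -0.31 and -0.13. Without OEx replicate 2 the difference of Kdelr2 over Kdelr3 was -0.13. In each of these 8 pairs the groups did not overlap, and the exact two-sided permutation p was 0.1, the smallest that 3 against 3 mice allow (0.138 adjusted over the 11 pairs by Benjamini-Hochberg). In Arf1 over Arf4, Copg1 over Copg2 and Sec16a over Sec16b the groups overlapped, with differences of -0.17, 0.10 and -0.26 and exact p of 0.2, 0.5 and 0.4. The ratio of Sec16a to Sec16b rests on the few reads of Sec16b.

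**Figure D4:**
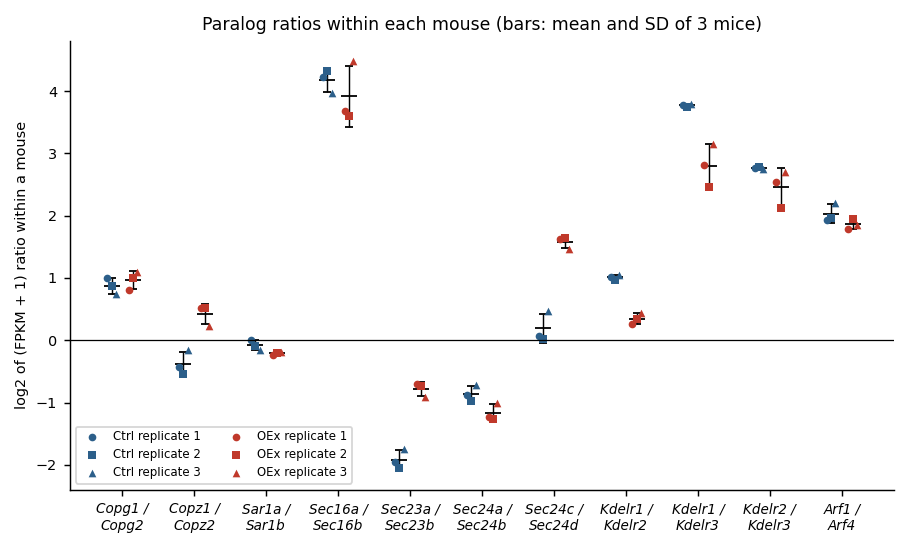
Log2 ratio of FPKM + 1 between paralogs in each mouse for 11 pairs, with 1 symbol per mouse (blue for Ctrl, red for OEx) and bars for the mean and SD of 3 mice. Copz1 over Copz2 crosses 0 between the groups, and Sec24c over Sec24d goes from a mean of 0.19 in Ctrl to 1.57 in OEx.

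The size of the difference went with exon length in these genes and in all tested genes. Across the 39 tested genes Spearman's rho between exon length and log2 fold change was 0.596, against 0.283 across 12463 tested genes with a length, as a description of genes that share the same 6 libraries. With GC content of the exons rho was -0.461 and -0.385, and with the mean level it was -0.665 and -0.359. Under 4000 bases, 13 of 19 trafficking genes were called lower (median log2 fold change -1.22), against 23.4% of 6502 tested genes with a median of -0.38. At 4000 bases or more, 4 of 20 were called lower (Sec24d, Lman2, Gbf1 and Sec23b), with a median of -0.33, against 6.81% of 5961 tested genes with a median of 0.20. Copz2, Cope and Copz1 are the shortest coat genes of COPI, with exon lengths of 2208, 3353 and 3662 bases, while the other 6 have 5121 to 14915 bases. After a correction for exon length and GC content, 20 of the 39 were called lower, against 11.4% of 12463 tested genes, with 15 against 12.8% for length alone and 20 against 13.0% for GC content alone. Arf1, Kdelr2 and Surf4 were then within 2-fold, Kdelr3 did not pass the FDR, and Arcn1, Bet1, Lman1, Sar1a, Sec22b and Tmed10 were called. Under that correction the coat genes Copz2, Copz1 and Cope were at -1.84, -1.45 and -1.15, Arcn1 at -1.27, and the 5 others at -0.95 to -0.39. Arcn1, Copb2, Copb1, Copa and Copg2 then passed as lower (limma FDRs of 2.16e-04, 0.0012, 0.0038, 0.0107 and 0.0112), and Copg1 did not (0.0664). The part of length and GC content in the group difference was not tested.

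**Figure D5:**
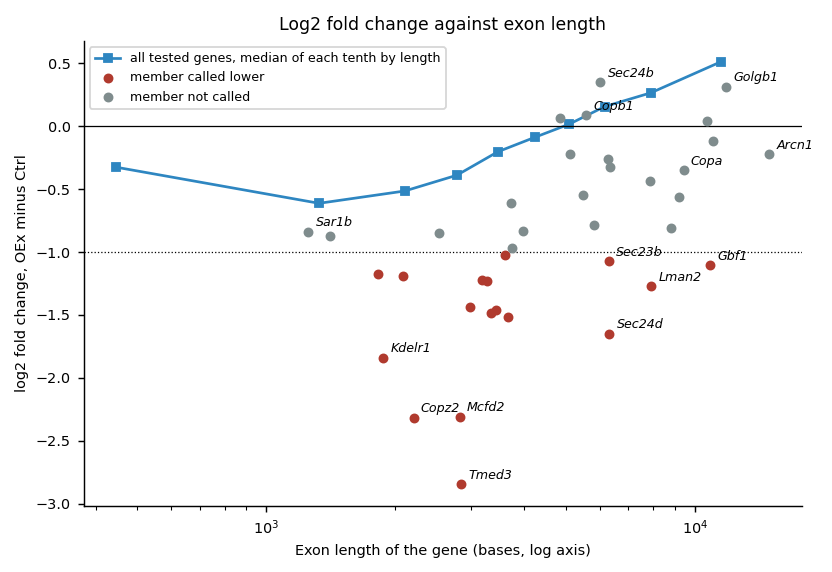
Log2 fold change (OEx minus Ctrl) of the 39 tested genes against exon length on a log axis, red for genes called lower and grey for the others, with blue squares for the median of all tested genes in each of 10 bins by length. The medians of all tested genes run from -0.61 at a median length of 1329 bases to 0.51 at 11500 bases, and Sec24b and Golgb1 are the highest of the 39 genes.

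Part of the other genes of the route was also lower on the deposited scale. Of 63 further ER and Golgi trafficking genes, 59 were tested, and their median log2 fold change was -0.45. Of these, 16 were called lower (27.1%, against 15.7% of all tested genes) and 1 was called higher (against 12.9%). By the FDR alone 36 were lower and 7 higher, against 36.5% and 30.7% of all tested genes. The calls of the list turned with the scaling, with 0 called lower and 8 higher with library totals, against 4.59% and 30.6% of all tested genes. The median log2 fold change of the list was then 0.19, below the 0.56 of all tested genes. Without the 20 most abundant genes 7 were called lower and 3 higher. Of all 12833 tested genes, 9.38% were then called lower and 2523 were called higher. On the deposited scale the largest differences were in Arfgap3, a GTPase-activating protein of COPI, at -1.46, in Rab1b, a GTPase of ER to Golgi transport, at -1.45, and in Trappc2l, a subunit of the TRAPP tether, at -1.45. Rab1b read 49.8, 52.4 and 55.2 FPKM in OEx and 150.2, 139 and 146 FPKM in Ctrl mice, with no overlap. The gene called higher was Tmed5, a p24 protein like Tmed3, with 4.30, 3.97 and 3.999 against 1.03, 0.95 and 1.03 FPKM (log2 fold change 1.34). It was at 0.54 with the GC correction, within 2-fold. Of the other p24 genes of this list, Tmed4 was called lower at -1.27, Tmed1 was lower within 2-fold at -0.76, Tmed7 was higher within 2-fold at 0.33 (limma FDR 0.0295), and Tmed8 did not pass at 0.23. With the exon length and GC correction Tmed7 turned to -0.35 (limma FDR 0.0245) and Tmed1 was at -0.083 (limma FDR 0.522). Tmed7 did not pass with a block for the replicate number (limma FDR 0.0763). Among all 9 tested p24 genes 3 were called lower and 1 higher, which became 1 lower and 2 higher with library totals. Among 14 genes of TRAPP subunits, 5 were called lower and 0 higher. The share called lower was 35.7%, against 15.7% of all tested genes and 28.3% of those with a mean of at least 10 FPKM. The FDR alone gave 9 lower and 2 higher (Trappc8 at 0.99 and Trappc13 at 0.35). Scaled to library totals, 0 TRAPP genes were called lower and 2 higher, where the shares of all tested genes were again 4.59% and 30.6%.

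Transcription factors known for secretory genes were lower on the deposited scale. Of 8 tested, 6 were called lower and 0 higher, against 15.7% and 12.9% of all tested genes. With library totals 1 was called lower (Bhlha15, at -2.25), without the 20 most abundant genes 3, with replicates 1 and 2 averaged 3, and with the exon length and GC correction 2. Leaving out each mouse gave 4 to 6. Bhlha15 (MIST1), which is known to set the secretory capacity of exocrine cells, read 10.5, 11.3 and 9.86 FPKM in OEx and 94.3, 94.5 and 85.6 FPKM in Ctrl mice (-3.00 on the log2 scale). Creb3, Creb3l1 and Creb3l4, of a family of ER-anchored factors, gave -1.39, -1.26 and -1.20, and Atf6 and Atf6b, the ER stress sensors that bind the elements searched above, gave -1.17 and -1.08. Xbp1 read 88.9, 86.7 and 85.6 against 126, 123 and 99.7 FPKM, a log2 fold change of -0.41 that passed the FDR within 2-fold, and Creb3l2 gave -0.32 and did not pass. Xbp1 did not pass without Ctrl replicate 1 or 2 (limma FDRs of 0.059 and 0.058) or with the exon length and GC correction (0.340). With library totals Xbp1 and Creb3l2 were higher by the FDR, at 0.37 and 0.42 (limma FDRs of 0.0100 and 0.0106). On that scale 56.9% of all tested genes were.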

How the data were processed

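FPKM values were deposited by the authors as a separate list of gene symbols for each mouse. Libraries were made with the TruSeq RNA kit, and the submitters' processing notes name CASAVA, HISAT2 2.0.5, featureCounts 1.5.0-p3 and StringTie 1.3.3b, with no genome build given in the sources used here. Reads were recovered from FPKM and GENCODE exon lengths of GRCm38 (96.9% to 97.5% of values under 1000 reads were whole within 0.05). The plan preferred counts, and log2(FPKM + 1) was fitted because the values are FPKM. The groups were fitted in limma 3.58.1 (R 4.3.3, group only, eBayes with trend) over the 12833 rows whose mean was 1 FPKM or more, a step tested on simulated data. Calls needed a Benjamini-Hochberg FDR under 0.05 and a log2 fold change beyond 1. Exact permutation tests covered all 20 assignments of 3 of 6 mice. Values in every mouse are given for the 12 called genes with the largest differences, for the extremes of each role and for paralog pairs, and outside the 40 genes the 3 largest calls in each direction and called regulators are named. Others, such as Xbp1, Creb3l2, the p24 genes Tmed1, Tmed4, Tmed7 and Tmed8, Trappc8 and Trappc13, were chosen after their values were seen. The genes, lists and motifs were chosen with earlier results of these data known. Motifs were searched in RefSeq promoters, and plots were made with matplotlib 3.10.9.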

Additional observations from a re-analysis of the deposited data

How the results depend on the processing

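The number of the 40 genes called lower, 17 on the deposited scale, was 4 with library totals (with 2 higher), 9 without the 20 most abundant genes, 9 with upper-quartile scaling over tested genes, and 26 by the FDR alone. Their median log2 fold change of -0.85 was -0.088, -0.51 and -0.57 under these 3 scalings, -1.04 with a GC correction and -1.05 with a correction for exon length and GC content. Its gap to the median of all tested genes, -0.77, was -0.98 with the GC correction. With upper-quartile scaling over all genes above 0, 20 genes were called lower. Of the other ER and Golgi genes, 16 were called lower on the deposited scale. With library totals 0 were lower and 8 higher, against 4.59% and 30.6% of all tested genes. Without the 20 most abundant genes 7 were lower and 3 higher, and with upper-quartile scaling over tested genes 7 were lower and 2 higher. The exon length and GC correction gave 10 lower and 0 higher, and the GC correction gave 0 higher. The FDR alone gave 36 lower and 7 higher. A pseudocount of 0.1 and limma-voom on recovered reads each gave 3 higher. Leaving out each mouse gave 14 to 17 of the 40 genes called lower and 1 to 2 of the other genes called higher. The losses were Gbf1 without OEx replicate 1, Arf4 without OEx replicate 2, and Arf4, Gbf1 and Sec23b without Ctrl replicate 1 or Ctrl replicate 2. Leaving out both replicates 3 gave 19. With replicates 1 and 2 averaged, 14 of the 40 genes and 13 of the other genes were lower, and 2 of the others were higher. Kdelr2 over Kdelr3 went from -0.30 to -0.13 without OEx replicate 2. With the pseudocount of 0.1 the difference of Sec16a over Sec16b was 0.28 in place of -0.26. A pseudocount of 0.1, no filter, a filter of 10 reads in each mouse and limma-voom each gave the same 17 genes. The corrections, the removal of both replicates 3, the averaging of replicates 1 and 2 and the upper-quartile scaling over tested genes were added after the data were seen. Beyond scalings and corrections, whose own construction moves the values, the cause was not tested. Depth limits Sec16b, with 11 to 54 reads per mouse.

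Replicate numbers are shared by the labels of both groups. Deviations of same-numbered mice from the group means correlated at -0.194, -0.189 and -0.307, so the numbers were taken as names. When the replicate number was added as a block, the same 17 genes were called lower and the median stayed at -0.85. Of the 26 genes lower by the FDR, 25 passed with the block, without Golga2. With the block and the exon length and GC correction together, 20 were called lower, the median was -1.05, and 10 of the other genes were lower and 0 higher.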
